A study of Mus musculus with 91 samples.

Results

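Wy-14643 is a laboratory ligand of the peroxisome proliferator-activated receptor alpha (PPARα), and 5 livers of mice given it were set against the 4 livers of the carboxymethylcellulose (CMC) cohort that the labels name as its controls, CMC Co1. These are 9 of the 91 livers of a study of carcinogenic and non-carcinogenic chemicals in mice. The members were chosen by group label: the Wy-14643 group at 28 days and CMC Co1 at 28 days, over every probe set of the array that carries a single gene symbol, 34945 of 45037. All mice were adult males on a C57BL/6J background, called C57BL in the labels, and no age beyond adult was given. The treated mice received Wy-14643 at 100 mg/kg by oral gavage every day for 28 days. CMC, the carrier, was labelled as 0 mg/kg for 28 days. Both groups were killed with carbon dioxide, and the livers were rinsed and snap-frozen. Groups of 5 mice were stated, with random assignment, and CMC Co1 is represented by 4 livers. Nothing in the labels gives a litter, a cage or an array batch, so treatment and any processing batch cannot be told apart in this comparison.

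PPARα is a nuclear receptor of hepatocytes that, once bound by a fatty acid or a drug, pairs with the retinoid X receptor on DNA and switches on genes for the uptake, activation and oxidation of fatty acids in peroxisomes and mitochondria. In mice and rats its synthetic ligands enlarge the liver, multiply peroxisomes and, on long dosing, lead to liver tumours. Cyp4a genes, Ehhadh and acyl-CoA thioesterases are long-used markers of its activity, and PPARγ, its relative in fat cells, drives Fabp4, Cd36, Cidea and Cidec.

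Values are the authors' log2 intensities, so a difference of 1 on this scale is 2-fold, and every difference below is the fitted mean of the Wy-14643 livers minus that of the CMC Co1 livers ± its standard error (n = 5 and 4). The number of livers limits the precision. Standard errors and p-values rest on the spread within groups over all 91 livers of the fit, not on these 9 alone. Where these 9 spread more or less than the others, the standard error does not show it. With only the 2 groups in the fit, 746 genes passed an adjusted p below 0.05 (limma), against 1914 in the main fit. Per liver, the median over probe sets lay between 5.23 and 5.29. The tissue label fits hepatocyte markers: Alb lay between 15.08 and 15.17 in the Wy-14643 livers and between 15.10 and 15.14 in the CMC Co1 livers, and 0 of 14 hepatocyte markers rose and 1 fell. Both genes given as markers of the comparison separated the groups. Cyp4a31, a fatty acid omega-hydroxylase, had log2 values of 12.77, 11.11, 12.59, 12.35 and 12.70 in the Wy-14643 livers, against 9.24, 8.51, 8.57 and 8.79 in the CMC Co1 livers. Fabp4, a fatty acid carrier best known from fat cells and macrophages, had 13.24, 11.17, 13.44, 13.25 and 12.22 in the Wy-14643 livers, against 7.83, 7.58, 7.46 and 7.21 in the CMC Co1 livers. Every treated value lay above every control value for both genes, and Wy-14643 liver 2 was the lowest of the treated. Livers are numbered as in the labels, and the numbers have no order. Cyp4a31 was higher by 3.53 ± 0.36, adjusted p = 1.89e-12 and Fabp4 by 5.14 ± 0.54, adjusted p = 6.15e-12.

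Of 18193 genes tested (1 probe set each), 1001 were higher in the Wy-14643 livers (5.5%) and 913 were lower (5.02%) at an adjusted p below 0.05 (limma, Benjamini-Hochberg). The difference was at least 2-fold in 251 of the genes that rose (1.38% of all) and 87 of those that fell (0.478%). All 5 treated values lay above all 4 controls for 744 genes (4.09%) and below them for 925 (5.08%). The median difference over all genes was -0.04. Each count of a gene group below is to be read beside the shares of all genes called, 5.5% higher and 5.02% lower. Counts depended on single livers: without Wy-14643 liver 5 there were 1180 called genes and without CMC Co1 liver 2 there were 1212, against 1914 with all livers (10.5%).

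The 5 Wy-14643 livers were not alike. Livers 1 and 3 correlated at 0.994 over all genes, while liver 2 correlated at 0.979 with liver 1. Among the treated, 98 genes had an SD above 1 log2 unit, against 7 among the CMC Co1 livers. Liver 2 had the weakest lipid gene values, and livers 2 and 5 the highest acute phase values. Counts of each gene group below are therefore also given without livers 2 and 5, a pair chosen after the values were seen, where that moves them by over 1.5 times. Over all genes the calls went from 1914 to 1022 without that pair (585 higher, 437 lower). A drop within a gene group is to be read beside that overall loss.

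CMC Co1 also differed from the other CMC cohorts, Co2 to Co5, of the same strain (18 livers): 350 genes were higher in CMC Co1 than in their mean (1.92%) and 303 lower (1.67%), 3.59% in all. The labels do not state by which route CMC was given to any of these cohorts, so the routes may differ. The part of route in differences between cohorts was not tested. Against the mean of Co2 to Co5, 1335 genes were higher in the Wy-14643 livers (7.34%) and 981 lower (5.39%), and against CMC Co5 alone, the cohort named for pioglitazone, 739 were higher (4.06%) and 560 lower (3.08%), 7.14% in all. Of the 1001 genes that rose against CMC Co1, 596 (59.5%) were also higher against Co2 to Co5, and of the 913 that fell, 419 (45.9%) were also lower. Where a gene group's count differs by over 1.5 times between CMC Co1 and the other controls, both counts are given. Of the 125 named genes called against CMC Co1, 94 were also called the same way against Co2 to Co5 and 90 against CMC Co5. Not called against CMC Co5, though called against Co2 to Co5, were Vnn1, Cidec, Crot, Hadhb, Acsl5, Acot4, Retsat, Fads1, Fads2, Abcc3, Susd4, Ube2c and Ccnb2. The 31 not called against Co2 to Co5 include genes for which this is said below. The rest, with their differences from Co2 to Co5, were Acsl4 (0.47, adjusted p = 0.0789), Slc16a1 (0.38, adjusted p = 0.0836), Alas1 (0.77, adjusted p = 0.147), Dnajb9 (0.55, adjusted p = 0.051), Btg2 (0.42, adjusted p = 0.466) and Ccn2 (0.97, adjusted p = 0.0686) among metabolic and growth genes. The metallothioneins, Lcn2 and 3 genes that fell against CMC Co1 were also of this kind: Mt1 (1.37, adjusted p = 0.133), Mt2 (1.2805, adjusted p = 0.222) and Lcn2 (-0.20, adjusted p = 0.913), then Bcl6 (-0.93, adjusted p = 0.202), Tshz1 (-0.30, adjusted p = 0.0917) and Ces2b (-0.31, adjusted p = 0.542).

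**Figure D1:**
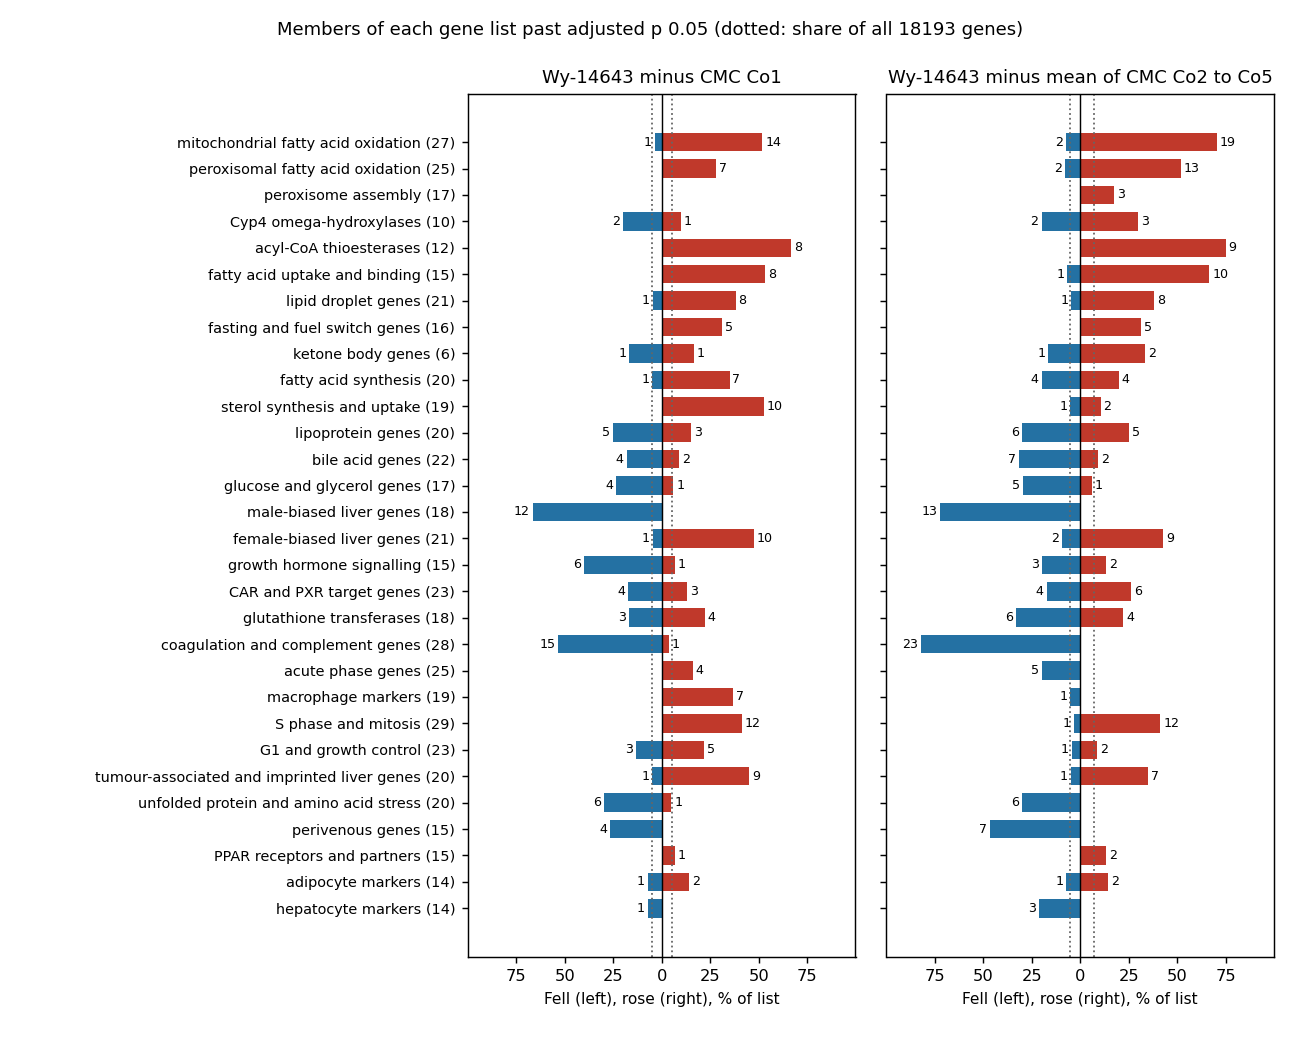
For each gene list (number of measured members in brackets), the bars give the percentage of members that rose (right, red) or fell (left, blue) at an adjusted p below 0.05, with the count at the bar's end, for Wy-14643 minus CMC Co1 and for Wy-14643 minus the mean of CMC Co2 to Co5. The dotted lines mark the share of all 18193 genes. Thioesterases (8 of 12) and male-biased genes (12 of 18) stand far from those lines in both panels, while sterol synthesis (10 of 19 against 2 of 19) and macrophage markers (7 of 19 against 0 of 19) depend on the control cohort.

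Omega-oxidation, the first step for long fatty acids in the endoplasmic reticulum, had 1 riser among 10 measured Cyp4 genes, Cyp4a31, and 2 fell. Against Co2 to Co5, 3 rose, and against CMC Co5, 2 rose. Cyp4a14, a second lauric acid hydroxylase, had 14.32, 13.81, 14.30, 14.02 and 14.15 in the Wy-14643 livers, against 12.05, 11.51, 11.28 and 12.47 in the CMC Co1 livers. All treated values again lay above all controls, but the difference of 2.29 ± 0.86 missed the threshold (adjusted p = 0.0725). That standard error rests on the spread within all groups of the fit, not on these livers alone. The SD of Cyp4a14 was 0.21 among the Wy-14643 livers and 0.54 among the CMC Co1 livers. In Co2 to Co5 its values ran from 4.84 to 13.21. With only the groups compared in the fit, 2 Cyp4 genes rose. The Cyp4a14 difference was 4.17 against Co2 to Co5 (adjusted p = 7.51e-07) and 2.62 against CMC Co5 (adjusted p = 0.0463), both called. Cyp4f14, which hydroxylates leukotriene B4, moved the other way, with 8.99, 9.52, 8.67, 8.41 and 8.38 in the Wy-14643 livers, against 9.597, 10.15, 10.02 and 10.27 in the CMC Co1 livers. No treated liver reached the lowest control, and Cyp4f14 fell by 1.22 ± 0.19, adjusted p = 2.06e-06. Cyp4v3 also fell (-0.89 ± 0.15, adjusted p = 6.93e-06).

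In peroxisomes, which shorten very long fatty acids, 7 of 25 measured oxidation genes rose and 0 fell, with a median difference of 0.32. Without Wy-14643 liver 2, 11 rose, and against Co2 to Co5, 13 rose and 2 fell. Against CMC Co5, 5 rose and 2 fell. Ehhadh, the bifunctional enzyme of peroxisomal beta-oxidation, had 14.59, 12.90, 14.63, 14.09 and 14.47 in the Wy-14643 livers, against 11.52, 11.47, 11.68 and 11.58 in the CMC Co1 livers. The controls lay close together, and liver 2, the lowest treated liver, was still above all of them. Ehhadh was higher by 2.58 ± 0.26, adjusted p = 1.02e-12. Abcd2, the transporter that brings very long fatty acids into peroxisomes, had 8.55, 6.94, 7.94, 6.96 and 7.47 in the Wy-14643 livers, against 4.51, 5.00, 4.44 and 5.55 in the CMC Co1 livers, with no overlap (2.70 ± 0.52, adjusted p = 0.000115). Ech1 (0.90 ± 0.13, adjusted p = 4.64e-07), Crot, the octanoyltransferase (0.68 ± 0.19, adjusted p = 0.014), and Eci2 (0.68 ± 0.14, adjusted p = 0.00023) rose by smaller steps. Acaa1b, a peroxisomal thiolase, lay between 14.47 and 14.98 in the Wy-14643 livers and between 14.30 and 14.47 in the CMC Co1 livers, with a difference of 0.42 (adjusted p = 0.0623). Nudt7, a peroxisomal hydrolase of coenzyme A, had a difference of -0.66 ± 0.25 (adjusted p = 0.0712), and the groups overlapped. None of the 17 measured genes that build the organelle, mostly peroxins, passed in limma at an adjusted p below 0.05 (3 had an unadjusted p under 0.05), whereas 3 rose against Co2 to Co5. Pex19, an import receptor, had the lowest p of them against CMC Co1 (0.29 ± 0.10, adjusted p = 0.0573) and was higher by 0.26 against Co2 to Co5 (adjusted p = 0.0173).

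In mitochondrial fatty acid oxidation 14 of 27 measured genes rose and 1 fell (median 0.40), and without Wy-14643 liver 2 or CMC Co1 liver 1, 2 fell. Against Co2 to Co5, 19 rose and 2 fell, and against CMC Co5, 9 rose and 2 fell. Decr1, the dienoyl-CoA reductase for unsaturated fatty acids, had 12.82, 11.53, 12.59, 12.10 and 12.36 in the Wy-14643 livers, against 10.63, 11.26, 11.35 and 11.62 in the CMC Co1 livers. Treated liver 2 was inside the control range and the other 4 were above it (1.06 ± 0.16, adjusted p = 9.13e-07). Hadhb, the thiolase of the trifunctional protein, had 12.27, 11.09, 12.002, 10.99 and 11.84 in the Wy-14643 livers, against 10.18, 10.64, 10.75 and 10.89 in the CMC Co1 livers. These groups did not overlap, though treated livers 2 and 4 came within 0.3 of the highest control (1.02 ± 0.20, adjusted p = 0.000167). The acyl-CoA synthetases Acsl4 (1.13 ± 0.24, adjusted p = 0.000688), Acsl3 (0.94 ± 0.21, adjusted p = 0.00124) and Acsl5 (0.77 ± 0.14, adjusted p = 3.27e-05) rose in all 5 treated livers relative to all controls. Eci1 rose by 0.76 ± 0.15, adjusted p = 0.000249, and its value in liver 2, 11.17, was below every control. Acadm, the medium-chain dehydrogenase, rose by 0.72 (adjusted p = 9.51e-06) and Acadl, the long-chain one, by 0.66 (adjusted p = 3.18e-06). Cpt1a, the gate of fatty acid entry into mitochondria, had 11.53, 11.11, 11.54, 10.97 and 11.51 in the Wy-14643 livers, against 10.78, 10.77, 11.04 and 10.96 in the CMC Co1 livers. Treated liver 4 was inside the control range and the rest above it (0.44 ± 0.15, adjusted p = 0.049), and the call was lost without any one of Wy-14643 livers 1, 3 or 5 or CMC Co1 livers 1, 2 or 4 (differences of 0.39 to 0.54). It also did not pass against Co2 to Co5 (0.21, adjusted p = 0.262) or against CMC Co5 (0.075, adjusted p = 0.863).

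Acyl-CoA thioesterases split acyl-CoA into free fatty acid and coenzyme A, and 8 of 12 measured members rose and 0 fell (median 0.48). Acot2, the mitochondrial form, had 12.13, 9.36, 11.94, 11.08 and 12.17 in the Wy-14643 livers, against 8.66, 8.43, 8.31 and 8.56 in the CMC Co1 livers, a difference of 2.85 ± 0.27, adjusted p = 1.28e-13. Acot1, its cytosolic neighbour, had 11.61, 8.36, 11.24, 9.34 and 10.38 in the Wy-14643 livers, against 7.58, 7.80, 7.61 and 8.58 in the CMC Co1 livers (2.29 ± 0.48, adjusted p = 0.000435). Acot2 did not overlap, whereas Acot1 of treated liver 2 fell below the highest control. Peroxisomal Acot3 (2.06 ± 0.46, adjusted p = 0.00118) and mitochondrial Acot9 (1.17 ± 0.25, adjusted p = 0.000771) rose without overlap. Acot4 rose by 0.91 ± 0.27, adjusted p = 0.0173, a call that was lost without Wy-14643 liver 1 or CMC Co1 liver 1 (differences of 0.68 to 1.06). Acot11 had a difference of -0.57 ± 0.31 (adjusted p = 0.246). The Acot1 to Acot6 genes are close copies of each other, and how far their probe sets cross-hybridise was not tested.

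Of 6 measured ketone body genes, Slc16a1, the carrier that exports ketone bodies and lactate, rose (0.74 ± 0.20, adjusted p = 0.00888) and Bdh2, a cytosolic hydroxybutyrate dehydrogenase, fell (-1.12 ± 0.23, adjusted p = 0.000291). Without Wy-14643 liver 2, 3 ketone body genes rose, without livers 2 and 5, 2 rose, and against Co2 to Co5, 2 rose. None rose against CMC Co5 (limma). Against CMC Co5, the Slc16a1 difference was -0.13 (adjusted p = 0.81). Of 16 measured fasting and fuel switch genes, 5 rose and 0 fell. Without any one of Wy-14643 livers 1, 3 or 5 or CMC Co1 livers 1 or 2, and without livers 2 and 5 together, 3 rose, and against CMC Co5, 1 rose and 2 fell. Retsat, a retinol saturase, had 13.52, 11.40, 13.21, 12.41 and 12.42 in the Wy-14643 livers, against 11.27, 11.27, 11.67 and 11.96 in the CMC Co1 livers, overlapping through liver 2 (1.05 ± 0.28, adjusted p = 0.00794). Vnn1, the pantetheinase, had 12.90, 10.43, 12.51, 11.80 and 11.90 in the Wy-14643 livers, against 10.58, 10.77, 10.58 and 10.82 in the CMC Co1 livers. Liver 2 was the lowest of all 9 for Vnn1 while the other 4 treated livers were above the controls (1.22 ± 0.37, adjusted p = 0.02), and the call was lost without Wy-14643 liver 1 or 3 or CMC Co1 liver 1 (differences of 0.98 to 1.59). The Vnn1 difference from CMC Co5 was 0.41 (adjusted p = 0.616). Pdk4, the kinase that shuts off pyruvate oxidation, had 10.08, 8.01, 10.01, 8.34 and 8.90 in the Wy-14643 livers, against 9.04, 8.58, 6.94 and 7.35 in the CMC Co1 livers. Its groups overlapped (1.09 ± 0.52, adjusted p = 0.169), and against Co2 to Co5 the difference was 1.72 (adjusted p = 0.000816).

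Several hormone-like or droplet genes often listed as PPARα targets did not pass the test against CMC Co1. Fgf21, the fasting hormone, lay between 6.40 and 7.91 in the Wy-14643 livers and between 6.74 and 7.71 in the CMC Co1 livers (0.15 ± 0.68, adjusted p = 0.915). Against CMC Co5 it was lower, with a difference of -2.42 (adjusted p = 0.0148). Angptl4, an inhibitor of lipoprotein lipase, lay between 10.14 and 10.90 in the Wy-14643 livers and between 10.63 and 11.23 in the CMC Co1 livers (-0.48 ± 0.30, adjusted p = 0.314). Its difference was -0.90 against CMC Co5 (adjusted p = 0.0468), called lower, and 0.19 against Co2 to Co5 (adjusted p = 0.646), not called. Plin2, the droplet coat protein, lay between 12.31 and 13.09 in the Wy-14643 livers and between 12.54 and 12.74 in the CMC Co1 livers (0.18 ± 0.18, adjusted p = 0.579). Igfbp1 differed by 1.87 ± 0.74 (adjusted p = 0.0906). The 95% interval of the Plin2 difference ran from -0.19 to 0.54, and that of Angptl4 from -1.07 to 0.11.

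Fatty acid uptake and binding held some of the largest rises: 8 of 15 measured genes rose and 0 fell, with a median of 0.62, and 10 rose and 1 fell against Co2 to Co5. Lpl, lipoprotein lipase, which frees fatty acids from circulating lipoproteins and is little used by adult liver, had 13.05, 12.62, 13.01, 12.88 and 13.06 in the Wy-14643 livers, against 9.32, 8.80, 9.42 and 8.65 in the CMC Co1 livers. The treated livers lay close together, all more than 3 units above the highest control (3.88 ± 0.45, adjusted p = 3.62e-10). Cd36, a fatty acid receptor of the cell surface, had 12.61, 10.87, 12.36, 11.56 and 11.87 in the Wy-14643 livers, against 9.22, 9.43, 8.88 and 9.12 in the CMC Co1 livers, without overlap (2.69 ± 0.34, adjusted p = 4.36e-09). Vldlr, the very low density lipoprotein receptor, had 7.67, 6.05, 6.43, 7.31 and 6.53 in the Wy-14643 livers, against 5.06, 4.95, 4.67 and 5.42 in the CMC Co1 livers, again apart (1.78 ± 0.20, adjusted p = 5.74e-11). Slc27a1, a fatty acid transport protein, rose by 1.13 ± 0.20, adjusted p = 4.18e-05, with liver 2 inside the control range. Fabp5, the epidermal fatty acid binding protein, rose by 2.24 ± 0.49, adjusted p = 0.000924 against CMC Co1, but its difference against Co2 to Co5 was 0.59 (adjusted p = 0.332). In CMC Co1 it was lower than in those cohorts (-1.65, adjusted p = 0.011).

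Lipid droplet genes showed 8 rises and 1 fall among 21 measured, and without Wy-14643 liver 1 or against CMC Co5, 2 falls. The counts were 7 and 0 without livers 2 and 5. Cidea, which fuses lipid droplets and is known from brown fat, had 11.15, 4.95, 12.29, 10.05 and 9.55 in the Wy-14643 livers, against 4.58, 5.00, 4.54 and 4.14 in the CMC Co1 livers. In 4 treated livers it was at least 4 units above every control, while liver 2 was within the control range (5.03 ± 0.56, adjusted p = 4.37e-11). The SD of Cidea among the treated livers was 2.80, which the pooled standard error does not show. Mogat1, which builds diacylglycerol from monoacylglycerol, had 10.00, 8.03, 10.10, 9.28 and 9.92 in the Wy-14643 livers, against 6.00, 6.64, 6.12 and 5.72 in the CMC Co1 livers, with no overlap (3.35 ± 0.30, adjusted p = 1.41e-14). Hsd17b11, a droplet-bound steroid dehydrogenase (1.24 ± 0.15, adjusted p = 9.21e-10), and Mgll, monoacylglycerol lipase (0.92 ± 0.18, adjusted p = 0.000104), rose. Cidec, the fat-cell relative of Cidea, rose by 1.41 ± 0.44, adjusted p = 0.026, and the call was lost without Wy-14643 liver 1 or 3 or CMC Co1 liver 1 or 3 (differences of 0.96 to 1.80). The Cidec difference from CMC Co5 was 0.92 (adjusted p = 0.221). G0s2, an inhibitor of the droplet lipase, had 11.10, 8.68, 10.81, 10.01 and 9.07 in the Wy-14643 livers, against 11.99, 12.56, 11.79 and 11.50 in the CMC Co1 livers. It fell in all 5 treated livers relative to all controls (-2.03 ± 0.47, adjusted p = 0.00165), and against Co2 to Co5 the difference was -0.75 (adjusted p = 0.162).

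Fat cells attached to a liver sample would carry Fabp4 and Cidec too, so their other markers are given. Of 14 measured adipocyte markers, Fabp4 and Cidec rose and Tshz1 fell (-0.53 ± 0.16, adjusted p = 0.0221). Tshz1 was lost without CMC Co1 liver 1 or 4 (differences of -0.58 to -0.44), and without Wy-14643 liver 1 or 3 or CMC Co1 liver 1 or 3 only Fabp4 rose. No marker fell without livers 2 and 5, and against CMC Co5, 1 rose and 0 fell. Adipoq, which defines fat cells, lay between 3.29 and 3.88 in the Wy-14643 livers and between 3.49 and 4.05 in the CMC Co1 livers (-0.19, adjusted p = 0.308). Lep lay between 4.33 and 4.67 in the Wy-14643 livers and between 4.43 and 4.99 in the CMC Co1 livers (-0.21, adjusted p = 0.139), and Retn between 5.45 and 6.01 in the Wy-14643 livers and between 5.60 and 6.15 in the CMC Co1 livers (-0.19, adjusted p = 0.587). In both groups Adipoq and Lep, which fat cells carry and hepatocytes do not, lay below the arrays' medians of 5.23 to 5.29 and Retn lay above them. The part of fat cells in the results above was not tested. The mean log2 value over the 14 markers, Fabp4 and Cidec among them, was 7.07 to 7.62 in the Wy-14643 livers and 6.99 to 7.03 in the CMC Co1 livers. The median difference over the 14 was -0.14, and 11 of them did not pass (limma), so that mean does not describe the list as a whole. In bulk liver, fewer or more cells of a type and less or more RNA per cell cannot be told apart for this or any gene here.

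**Figure D2:**
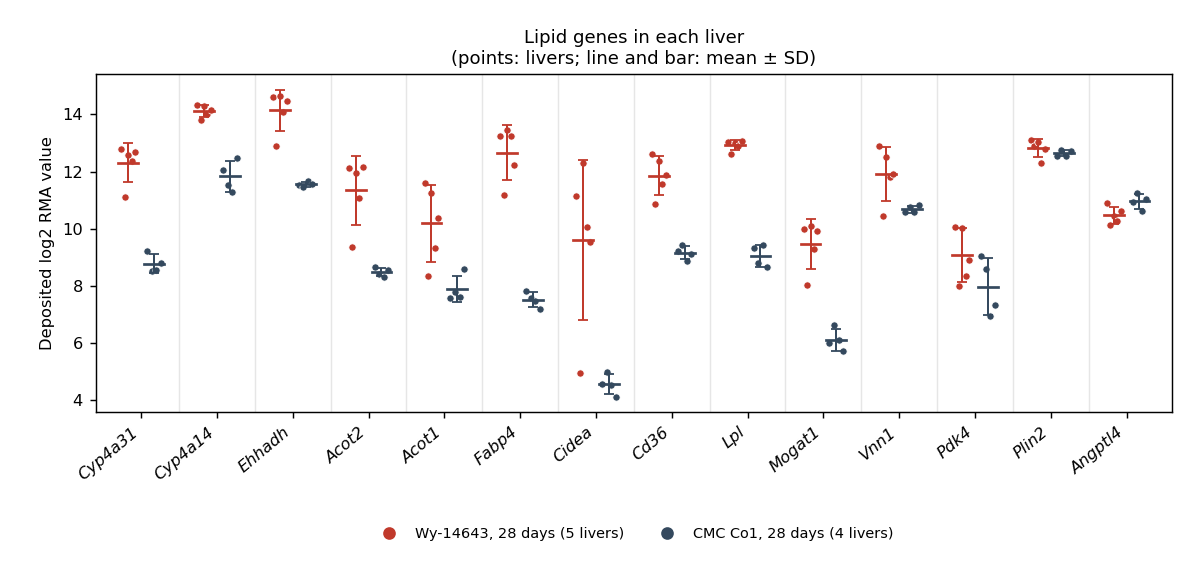
Deposited log2 values of 14 lipid genes in each of the 5 Wy-14643 livers (red, left of each pair) and the 4 CMC Co1 livers (grey-blue, right), with the mean and SD of each group. Cyp4a31, Ehhadh, Acot2, Fabp4, Cd36, Lpl and Mogat1 separate fully, Cidea separates in all treated livers but liver 2, and Pdk4, Plin2 and Angptl4 overlap.

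The receptors themselves did not pass the test. Ppara had 11.18, 10.58, 11.04, 10.78 and 10.49 in the Wy-14643 livers, against 11.02, 10.65, 11.08 and 11.22 in the CMC Co1 livers, overlapping throughout (-0.18 ± 0.21, adjusted p = 0.632), although another of its probe sets fell by 0.61 (adjusted p = 0.027 over all probe sets). Pparg lay between 6.55 and 7.91 in the Wy-14643 livers and between 7.16 and 7.46 in the CMC Co1 livers (0.16 ± 0.21, adjusted p = 0.676). Of 15 measured receptors and partners, Ppargc1a, a co-activator of mitochondrial genes, alone rose (1.01 ± 0.31, adjusted p = 0.0223), and that call was lost without Wy-14643 liver 2 or 5 or CMC Co1 liver 2 (differences of 0.81 to 1.15). That 1 rise among 15 is near the share of all genes that rose, 5.5%. None of the list rose without livers 2 and 5 (limma), and against Co2 to Co5, 2 rose. Lpin1 (0.79 ± 0.46, adjusted p = 0.285) and Ppargc1b (-0.78 ± 0.32, adjusted p = 0.102) did not pass.

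Promoter windows are shown for 3 genes on which the comparison turns: Cyp2b9 (the largest rise), Cd36 and Slco1a1 (among the largest falls). All 3 hold the motif described next, and windows without it were passed over, so the choice says nothing of how common it is. PPARα with its partner is known to bind pairs of the motif AGGTCA spaced by 1 base. Each line runs 5′ to 3′ on the gene's strand, from 250 bases before to 50 after 1 listed start of the gene on GRCm38.p6. Capitals mark AGGTCA or its reverse complement TGACCT. Some genes have several listed starts (32851 windows for 27025 genes), and the first window of each gene is shown. The windows are chr7:26173159-26173458 on the plus strand (Cyp2b9), chr5:17835847-17836146 on the minus strand (Cd36) and chr6:141946913-141947212 on the minus strand (Slco1a1). RefSeq places Cyp2b9 at 26173350-26210661, Cd36 at 17781690-17888959 and Slco1a1 at 141907281-141946962, so the Cd36 window lies inside the gene.
Cyp2b9: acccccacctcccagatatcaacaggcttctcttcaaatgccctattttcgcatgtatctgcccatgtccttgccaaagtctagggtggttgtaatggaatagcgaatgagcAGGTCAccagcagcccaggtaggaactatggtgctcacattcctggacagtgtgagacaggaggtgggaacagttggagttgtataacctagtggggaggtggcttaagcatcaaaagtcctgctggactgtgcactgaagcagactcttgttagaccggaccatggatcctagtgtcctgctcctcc
Cd36: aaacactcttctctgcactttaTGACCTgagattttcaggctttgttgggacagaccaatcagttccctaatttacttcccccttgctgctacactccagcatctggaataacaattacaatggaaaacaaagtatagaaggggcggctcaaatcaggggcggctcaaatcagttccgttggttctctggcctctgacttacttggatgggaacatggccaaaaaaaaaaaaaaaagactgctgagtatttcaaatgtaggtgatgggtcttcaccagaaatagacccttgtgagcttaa
Slco1a1: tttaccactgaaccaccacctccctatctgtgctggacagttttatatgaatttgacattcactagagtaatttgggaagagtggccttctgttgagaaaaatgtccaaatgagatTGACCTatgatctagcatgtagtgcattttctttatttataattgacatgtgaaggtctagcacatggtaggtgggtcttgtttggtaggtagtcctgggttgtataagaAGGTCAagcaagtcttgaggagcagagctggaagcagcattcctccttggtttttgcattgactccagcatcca
Cyp2b9 and Cd36 hold 1 such motif each and Slco1a1, which fell, holds 2. AGGTCA on either strand is in 14.5% of the 1032 windows of genes that rose and 16.8% of the 920 windows of genes that fell, against 14.3% of the 18109 windows of genes measured here and 16.3% of all 32851 windows. The spaced pair AGGTCANAGGTCA, of which AGGTCA is a part, is in 0.0396% of all windows, and in 0 windows of either group of called genes. Matches describe the letters of these windows only. Of the 158 named genes, 123 have a window in the table, and 22 of these hold AGGTCA.

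The counts of fatty acid synthesis genes depended on the cohort: 7 of 20 measured genes rose and 1 fell against CMC Co1, whereas 4 rose and 4 fell against Co2 to Co5 and 1 rose and 1 fell against CMC Co5. With livers 2 and 5 left out, 8 rose and 0 fell. Fads2, the delta-6 desaturase, had 11.78, 10.64, 11.80, 11.10 and 11.58 in the Wy-14643 livers, against 10.09, 10.27, 10.33 and 10.33 in the CMC Co1 livers, apart in every liver (1.13 ± 0.22, adjusted p = 0.000227). Fads1 (0.85 ± 0.19, adjusted p = 0.000991), Acss2, a cytosolic acetyl-CoA synthetase (0.87 ± 0.23, adjusted p = 0.00848), and Acacb, the acetyl-CoA carboxylase that makes the malonyl-CoA controlling Cpt1 (0.97 ± 0.27, adjusted p = 0.0123), rose. The differences against Co2 to Co5 were 0.75 for Fads2 (adjusted p = 0.000801) and 0.57 for Fads1 (adjusted p = 0.00248), both called. They were 0.40 for Acss2 (adjusted p = 0.125) and 0.095 for Acacb (adjusted p = 0.8294), neither called. Against CMC Co5, none of these 4 genes was called (limma). Fasn, fatty acid synthase, lay between 11.32 and 12.10 in the Wy-14643 livers and between 10.95 and 11.62 in the CMC Co1 livers (0.48 ± 0.33, adjusted p = 0.379). Elovl3, an elongase that is male-biased and daily cycling in mouse liver, had 11.25, 7.87, 11.52, 8.76 and 8.09 in the Wy-14643 livers, against 11.82, 12.20, 11.76 and 11.61 in the CMC Co1 livers. Livers 1 and 3 stayed close under the controls while livers 2, 4 and 5 were about 3 units lower (-2.35 ± 0.58, adjusted p = 0.00387).

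Sterol synthesis and uptake genes rose together against CMC Co1, 10 of 19 measured and 0 fell, but against Co2 to Co5, 2 rose and 1 fell, against CMC Co5, 2 rose, and 6 of the 19 were lower in CMC Co1 than in Co2 to Co5. The rises were 6 without livers 2 and 5. Pmvk, phosphomevalonate kinase, had 9.26, 9.08, 9.24, 8.77 and 9.09 in the Wy-14643 livers, against 7.97, 8.34, 8.10 and 7.89 in the CMC Co1 livers. Its groups were apart (1.01 ± 0.20, adjusted p = 0.000267), and against Co2 to Co5 the difference was 0.26 (adjusted p = 0.295). Mvd (1.15 ± 0.29, adjusted p = 0.00412), Cyp51 (0.97 ± 0.22, adjusted p = 0.0011), Lss (0.75 ± 0.23, adjusted p = 0.0221) and Msmo1 (0.74 ± 0.25, adjusted p = 0.0452) also passed against CMC Co1 and not against Co2 to Co5, where their differences lay between -0.11 and 0.53. Without Wy-14643 liver 5 or CMC Co1 liver 4, 6 rose, and without CMC Co1 liver 1, 5 rose. Lss was lost without Wy-14643 liver 5 or CMC Co1 liver 1 or 4 (differences of 0.62 to 0.92), and Msmo1 without any one of Wy-14643 livers 1, 3 or 5 or CMC Co1 livers 1, 3 or 4 (differences of 0.63 to 0.88).

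Lipoprotein genes went both ways, with 3 of 20 higher and 5 lower, and 5 higher and 6 lower against Co2 to Co5. Pltp, the phospholipid transfer protein, had 12.76, 12.25, 12.92, 13.43 and 12.52 in the Wy-14643 livers, against 11.24, 10.44, 10.16 and 10.46 in the CMC Co1 livers, apart by over 1 unit (2.20 ± 0.31, adjusted p = 1.62e-07). Angptl8, a feeding-induced regulator of lipoprotein lipase, had 8.38, 9.14, 8.89, 8.73 and 8.56 in the Wy-14643 livers, against 11.01, 11.28, 10.78 and 11.06 in the CMC Co1 livers, lower in all 5 (-2.29 ± 0.50, adjusted p = 0.000951). Apoa4 fell by 1.83 ± 0.36, adjusted p = 0.000222, with liver 5 inside the control range. Apom fell by 0.83 ± 0.22, adjusted p = 0.00888, a call lost without Wy-14643 liver 4 (differences of -0.97 to -0.67). Abcg5, the sterol exporter, rose by 0.67 ± 0.23, adjusted p = 0.0458, a call lost without any one of Wy-14643 livers 2, 3 or 4 or CMC Co1 livers 1, 2 or 4 (differences of 0.54 to 0.77).

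The largest rise of all belonged to Cyp2b9, a cytochrome P450 that adult female mouse liver expresses and adult male liver does not. Its values were 10.31, 9.14, 9.98, 10.44 and 10.14 in the Wy-14643 livers, against 4.28, 4.19, 4.26 and 4.21 in the CMC Co1 livers. The 4 controls lay near the low end of the scale within 0.1 of each other, and every treated liver was more than 4 units higher (5.77 ± 0.67, adjusted p = 2.85e-10). Rad51b, a gene of recombination repair, had 9.65, 8.86, 9.26, 8.77 and 8.41 in the Wy-14643 livers, against 5.29, 4.91, 4.88 and 5.15 in the CMC Co1 livers (3.93 ± 0.52, adjusted p = 2.12e-08). A second Rad51b probe set averaged 4.3 in the Wy-14643 livers and 4.2 in the CMC Co1 livers, and its difference was 0.09 (adjusted p = 0.74 over all probe sets), so the probe sets disagree. Pla2g7, which degrades platelet-activating factor, had 9.52, 6.63, 8.99, 8.27 and 9.28 in the Wy-14643 livers, against 5.23, 5.18, 4.21 and 4.47 in the CMC Co1 livers (3.76 ± 0.35, adjusted p = 5.52e-14). Bhlhb9 had 8.89, 7.96, 8.56, 8.24 and 8.77 in the Wy-14643 livers, against 5.23, 4.87, 5.04 and 5.12 in the CMC Co1 livers (3.42 ± 0.26, adjusted p = 2.2e-18). Both separated fully, and liver 2 was the lowest treated liver for each. Cox6b2, a cytochrome oxidase subunit first known from testis, had 8.84, 5.61, 8.65, 8.48 and 8.45 in the Wy-14643 livers, against 4.72, 5.02, 4.60 and 4.73 in the CMC Co1 livers. Liver 2 stood nearly 3 units below the other treated livers and above the controls (3.24 ± 0.26, adjusted p = 3e-17).

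Scd2, a stearoyl-CoA desaturase best known from brain, had 6.79, 10.996, 8.37, 8.86 and 11.34 in the Wy-14643 livers, against 5.33, 5.05, 5.55 and 5.67 in the CMC Co1 livers. Here livers 2 and 5 were highest and liver 1 lowest, whereas liver 2 was the lowest treated liver for Cyp4a31, Ehhadh and Fabp4, and no treated value overlapped the controls (3.87 ± 0.53, adjusted p = 4.3e-08). In Co2 to Co5, Scd2 values ran from 4.61 to 9.08, and the highest of these was above Wy-14643 livers 1, 3 and 4. The other Scd2 probe sets, both near the low end of the scale, had differences of 0.18 (adjusted p = 0.499 over all probe sets) and 0.02 (adjusted p = 0.961).

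Genes that male liver expresses more than female liver fell broadly. Of 18 measured male-biased genes 12 fell and 0 rose (median -1.63), and of 21 measured female-biased genes 10 rose and 1 fell (median 0.43). The 1 female-biased gene that fell was Cyp39a1, an oxysterol hydroxylase named here after its value was seen (-1.15, adjusted p = 0.0401), and without any one of Wy-14643 livers 1, 3 or 4 or CMC Co1 livers 2, 3 or 4, 0 fell, while 2 fell against Co2 to Co5. The largest fall of all was outside these lists, in Serpina12, which encodes vaspin, a serpin known as an adipokine. It had 4.46, 4.12, 4.53, 4.21 and 4.55 in the Wy-14643 livers, against 11.11, 11.69, 11.66 and 11.26 in the CMC Co1 livers. All treated livers were at the low end of the scale and all controls more than 6 units higher (-7.06 ± 0.76, adjusted p = 2.01e-11). Hsd3b5, a male-specific ketosteroid reductase, had 6.74, 4.86, 7.31, 5.04 and 4.41 in the Wy-14643 livers, against 12.34, 12.63, 12.59 and 12.25 in the CMC Co1 livers. Slco1a1, an organic anion uptake transporter, had 7.68, 7.28, 8.15, 6.41 and 6.34 in the Wy-14643 livers, against 11.60, 11.63, 11.46 and 11.67 in the CMC Co1 livers. Neither overlapped, and the treated livers were more spread than the controls. The differences were -6.78 ± 0.89, adjusted p = 1.39e-08 for Hsd3b5 and -4.42 ± 0.52, adjusted p = 5.02e-10 for Slco1a1.

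Ugt2b38, a glucuronosyltransferase, had 7.91, 6.36, 7.35, 4.69 and 7.43 in the Wy-14643 livers, against 10.39, 11.01, 11.05 and 9.99 in the CMC Co1 livers (-3.86 ± 0.70, adjusted p = 4.74e-05). Mup10, a major urinary protein, had 8.82, 7.97, 10.500, 8.30 and 5.26 in the Wy-14643 livers, against 11.37, 10.91, 11.99 and 11.04 in the CMC Co1 livers (-3.15 ± 0.64, adjusted p = 0.000282). Treated values lay under all CMC Co1 values for both and were widely spread. The lowest value in Co2 to Co5 was 8.61 for Ugt2b38, above all treated livers, and 8.14 for Mup10, within the treated range. Both belong to families of near-identical copies, and cross-hybridisation was not tested. Susd4, a complement inhibitor, fell by 2.08 ± 0.53, adjusted p = 0.00493, and Serpina4-ps1, a serpin pseudogene, fell by 4.22 ± 0.77, adjusted p = 5.66e-05. Sdr9c7, a short-chain dehydrogenase, fell by 3.38 ± 0.29, adjusted p = 2.61e-15, and Slc22a7, organic anion transporter 2, fell by 2.59 ± 0.45, adjusted p = 2.43e-05. All treated values of these 4 lay below all CMC Co1 values. For Slc22a7 the lowest value in Co2 to Co5, 8.43, was below that of Wy-14643 liver 2, 8.80. Among female-biased genes, Hao2, a peroxisomal hydroxyacid oxidase, had 6.56, 4.55, 4.83, 5.83 and 7.49 in the Wy-14643 livers, against 4.47, 4.12, 3.82 and 4.06 in the CMC Co1 livers, apart in all livers (1.74 ± 0.31, adjusted p = 2.97e-05). Abcd2, Acot3, Cd36 and Vldlr, given above, are on this list too, so the list and the lipid groups share members.

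Growth hormone, acting through STAT5, sets the sex bias of mouse liver. Of 15 measured genes of its signalling, 1 rose and 6 fell, and without livers 2 and 5, 0 rose and 2 fell. The 1 rise is near the share of all genes that rose, 5.5%, and 5.02% of all genes fell. Against Co2 to Co5, 2 rose and 3 fell, and against CMC Co5, 1 rose and 3 fell. Without any one of Wy-14643 livers 4 or 5 or CMC Co1 livers 1 or 2, 3 fell and 0 rose, and without Wy-14643 liver 1, 0 rose. Bcl6, a repressor that STAT5 holds down, had 8.13, 9.07, 10.34, 7.70 and 7.70 in the Wy-14643 livers, against 10.78, 10.44, 10.84 and 10.51 in the CMC Co1 livers. Liver 3 was only just under the controls and the rest 1 to 3 units under (-2.06 ± 0.62, adjusted p = 0.0212), and the call was lost without Wy-14643 liver 4 or 5 or CMC Co1 liver 1 or 3 (differences of -2.49 to -1.83). Cish (1.31 ± 0.62, adjusted p = 0.168) and Socs3 (0.97 ± 0.62, adjusted p = 0.329), both induced by cytokine and growth hormone signalling, did not pass. Their treated values spread widely, with liver 3 the lowest for each.

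**Figure D3:**
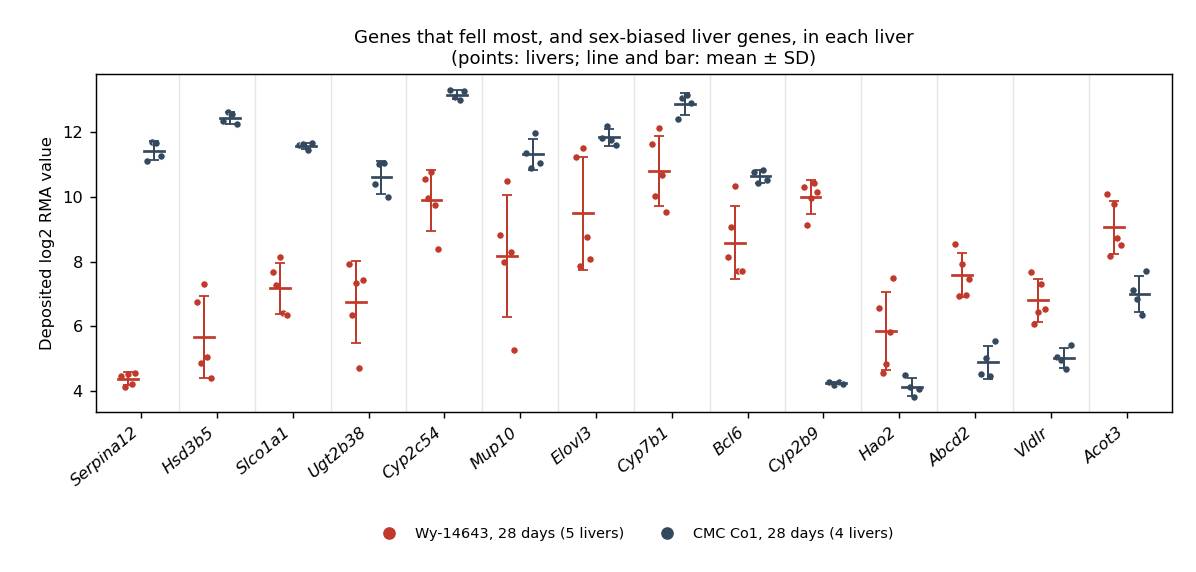
Deposited log2 values of 14 genes in each of the 5 Wy-14643 livers (red, left of each pair) and the 4 CMC Co1 livers (grey-blue, right), with mean and SD: 9 genes that fell, from Serpina12 to Bcl6, and 5 that rose, from Cyp2b9 to Acot3. No pair overlaps, and the treated spread exceeds the control spread for Hsd3b5, Mup10 and Elovl3.

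Bile acid genes had 2 rises and 4 falls among 22 measured. The falls were 7 without Wy-14643 liver 1 and 2 without Wy-14643 liver 5 or CMC Co1 liver 4, and the rises 1 without any one of Wy-14643 livers 3 or 4 or CMC Co1 livers 1, 2 or 3. With livers 2 and 5 left out, 2 fell. The falls were 7 against Co2 to Co5, and against CMC Co5 there were 1 rise and 6 falls. Cyp7b1, the oxysterol hydroxylase of the alternative pathway and a male-biased gene, had 11.63, 10.03, 12.14, 10.68 and 9.55 in the Wy-14643 livers, against 12.40, 13.07, 13.16 and 12.91 in the CMC Co1 livers. It was lower in every treated liver (-2.08 ± 0.38, adjusted p = 6.11e-05). Abcc4, an export pump of the blood side, had 7.96, 8.22, 7.82, 8.03 and 8.06 in the Wy-14643 livers, against 6.29, 5.92, 5.77 and 6.09 in the CMC Co1 livers. Its treated livers lay close together, all above the controls (2.00 ± 0.36, adjusted p = 4.92e-05). Abcc3 rose by 0.60 ± 0.21, adjusted p = 0.0471, a call lost without any one of Wy-14643 livers 1, 3 or 4 or CMC Co1 livers 1, 2 or 3 (differences of 0.52 to 0.69). Cyp7a1, the rate-limiting enzyme of bile acid synthesis, lay between 9.18 and 10.47 in the Wy-14643 livers and between 8.47 and 9.66 in the CMC Co1 livers (1.08 ± 0.43, adjusted p = 0.0933). Cyp8b1, the 12-alpha-hydroxylase, differed by 0.088 ± 0.33 (adjusted p = 0.899) and Nr0b2, the repressor SHP, by -0.87 ± 0.39 (adjusted p = 0.151).

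Among 17 measured genes of glucose, glycogen and glycerol metabolism, 1 rose and 4 fell. Of all genes 5.5% rose and 5.02% fell, so the 1 rise is near the share of all genes. Without Wy-14643 liver 5, 2 fell, and without livers 2 and 5, 1 fell. Ppp1r3g, a glycogen-targeting subunit of protein phosphatase 1, rose by 2.09 ± 0.54, adjusted p = 0.00602, while 2 others of that family, Ppp1r3c (-1.19 ± 0.34, adjusted p = 0.0138) and Ppp1r3b (-0.90 ± 0.30, adjusted p = 0.0373), fell. Pklr, liver pyruvate kinase, had 8.28, 7.78, 8.58, 8.27 and 8.39 in the Wy-14643 livers, against 9.66, 9.38, 9.53 and 9.34 in the CMC Co1 livers, lower in all 5 (-1.22 ± 0.33, adjusted p = 0.00858). Khk, ketohexokinase, fell by 0.82 ± 0.19, adjusted p = 0.00232. Ppp1r3c was lost without Wy-14643 liver 4 or 5 (differences of -1.41 to -0.96), and Ppp1r3b without any one of Wy-14643 livers 1, 3 or 5 or CMC Co1 livers 1, 2 or 3 (differences of -1.002 to -0.74). G6pc, glucose-6-phosphatase, lay between 11.10 and 11.69 in the Wy-14643 livers and between 11.04 and 11.74 in the CMC Co1 livers (0.066 ± 0.41, adjusted p = 0.946).

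Targets of the drug receptors CAR and PXR split: 3 of 23 measured rose and 4 fell, and against Co2 to Co5, 6 rose and 4 fell. The falls included 3 Cyp2c enzymes that oxidise arachidonic acid. Cyp2c54 had 10.57, 9.96, 10.78, 9.76 and 8.39 in the Wy-14643 livers, against 13.30, 13.11, 12.99 and 13.29 in the CMC Co1 livers (-3.28 ± 0.30, adjusted p = 2.33e-14). Cyp2c37 had 10.24, 9.42, 10.40, 9.85 and 8.79 in the Wy-14643 livers, against 12.75, 12.51, 12.36 and 12.87 in the CMC Co1 livers (-2.88 ± 0.34, adjusted p = 2.91e-10). Cyp2c50 had 11.95, 11.44, 11.81, 10.97 and 10.41 in the Wy-14643 livers, against 13.74, 13.62, 13.65 and 13.77 in the CMC Co1 livers (-2.38 ± 0.17, adjusted p = 9.95e-19). For all 3 every treated liver was below every CMC Co1 liver, and liver 5 was the lowest. The lowest value in Co2 to Co5 was 9.92 for Cyp2c54 and 9.30 for Cyp2c37, within the range of the treated livers. The differences from Co2 to Co5 were -2.53 for Cyp2c54 (adjusted p = 2.48e-15) and -2.14 for Cyp2c37 (adjusted p = 2.03e-10), both called (limma). Besides Cyp2b9, Cyp3a13 (1.18 ± 0.23, adjusted p = 0.000115) and Alas1, the first enzyme of haem synthesis (1.69 ± 0.47, adjusted p = 0.0107), rose, and Alas1 was lost without Wy-14643 liver 5 or CMC Co1 liver 1 (differences of 1.48 to 1.85). Cyp2b10, the usual CAR marker, lay between 6.09 and 7.41 in the Wy-14643 livers and between 4.85 and 6.31 in the CMC Co1 livers (0.95 ± 0.49, adjusted p = 0.215). Its other probe sets, both of the kind that can match several transcripts, rose by 2.13 and 2.70 (adjusted p = 0.019 and 0.0051 over all probe sets), and what they share with Cyp2b9 was not tested. Cyp3a11 differed by 0.055 ± 0.055 (adjusted p = 0.561) at values of 14.65 or more in all 9 livers.

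Of 18 measured glutathione transferases, 4 rose and 3 fell. Without Wy-14643 liver 3, 2 rose, and without Wy-14643 liver 4 or any 1 of the 4 controls, 1 fell. Against Co2 to Co5 and also against CMC Co5, 6 fell. Mgst3, a microsomal form, had 10.78, 9.77, 10.69, 11.28 and 10.90 in the Wy-14643 livers, against 9.26, 9.41, 9.10 and 9.68 in the CMC Co1 livers, apart by a small gap (1.32 ± 0.26, adjusted p = 0.000137), and Gstt2 rose by 1.01 ± 0.25, adjusted p = 0.00414. Gstm3 (0.81 ± 0.34, adjusted p = 0.117) and Gstt3 (0.74 ± 0.34, adjusted p = 0.155) did not pass. Carboxylesterases, which hydrolyse drugs and lipids, showed 3 falls among 10: Ces2a (-0.88 ± 0.13, adjusted p = 3.43e-07), Ces1c (-0.53 ± 0.073, adjusted p = 7.05e-08) and Ces2b (-1.15 ± 0.38, adjusted p = 0.0357). The Ces2b call was lost without any one of Wy-14643 livers 2, 4 or 5 or CMC Co1 livers 1, 2 or 3 (differences of -1.43 to -0.98). Of 15 measured perivenous genes, those of hepatocytes near the central vein, 4 fell and 0 rose, and 2 fell without any one of Wy-14643 livers 4 or 5 or CMC Co1 livers 2 or 3. Leaving out livers 2 and 5, 2 fell, against Co2 to Co5, 7 fell, and against CMC Co5, 2 fell. Cyp1a2 had 12.13, 12.15, 12.38, 12.40 and 11.11 in the Wy-14643 livers, against 13.05, 13.05, 13.26 and 13.01 in the CMC Co1 livers, lower in all treated livers and lowest in liver 5 (-1.06 ± 0.19, adjusted p = 5.38e-05). Gulo, the last enzyme of vitamin C synthesis, fell by 0.96 ± 0.16, adjusted p = 1.3e-05. Tbx3, a transcription factor of that zone, differed by -0.81 ± 0.30 (adjusted p = 0.0656).

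Coagulation and complement genes, which hepatocytes secrete, fell broadly: 15 of 28 measured fell and 1 rose (median -0.39), and against Co2 to Co5, 23 fell and 0 rose. Against CMC Co5, and without livers 2 and 5, 0 rose. C6, of the membrane attack complex, had 8.22, 9.15, 8.73, 7.61 and 8.83 in the Wy-14643 livers, against 10.37, 10.82, 10.82 and 10.62 in the CMC Co1 livers (-2.15 ± 0.28, adjusted p = 1.59e-08). C9 had 11.60, 13.26, 12.10, 12.29 and 12.13 in the Wy-14643 livers, against 13.98, 14.07, 14.03 and 13.81 in the CMC Co1 livers (-1.69 ± 0.22, adjusted p = 6.23e-09). C8b had 9.67, 10.77, 9.93, 9.38 and 9.74 in the Wy-14643 livers, against 11.45, 11.76, 11.71 and 11.40 in the CMC Co1 livers (-1.68 ± 0.18, adjusted p = 3.09e-11). These 3 subunits of one complex were lower in every treated liver. C8a (-0.98 ± 0.18, adjusted p = 4.15e-05) and coagulation factor F11 (-0.69 ± 0.17, adjusted p = 0.00252) fell as well, with liver 2 at or near the control values in both. Among 20 genes of the unfolded protein response 6 fell and 1 rose, with Sdf2l1 (-1.23 ± 0.27, adjusted p = 0.00103) and Derl3 (-1.08 ± 0.24, adjusted p = 0.00103) lower and Dnajb9 higher (0.96 ± 0.26, adjusted p = 0.00951). Without CMC Co1 liver 2, 3 fell and 2 rose, and without Wy-14643 liver 1, 2 rose. None rose without livers 2 and 5, against Co2 to Co5 or against CMC Co5 (limma).

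Acute phase genes rested on single livers. Against CMC Co1, 4 of 25 measured rose and 0 fell. Without liver 2 or without liver 5, 1 rose. Without livers 2 and 5, 0 rose and 1 fell, and against Co2 to Co5, 0 rose and 5 fell. Against CMC Co5, 1 rose and 1 fell. In CMC Co1, 12 of the 25 were lower than in Co2 to Co5, Lcn2 by a difference of -3.78 (adjusted p = 0.0061). Lcn2, an iron-siderophore carrier, had 5.24, 13.01, 6.97, 8.18 and 11.62 in the Wy-14643 livers, against 5.49, 6.30, 5.21 and 4.70 in the CMC Co1 livers. Mt2, a metallothionein, had 7.75, 14.15, 7.50, 11.95 and 13.89 in the Wy-14643 livers, against 7.83, 7.93, 7.51 and 7.78 in the CMC Co1 livers. In both genes livers 2 and 5 were highest and liver 1 was among the controls. Lcn2 (3.58 ± 1.03, adjusted p = 0.0152) lost its call without liver 2 or without liver 5 (differences of 2.58 to 4.52), and so did Mt2 (3.28 ± 0.89, adjusted p = 0.00901, differences of 2.51 to 4.17). Mt1 rose by 3.63 ± 0.81, adjusted p = 0.00108 with the same livers highest. Saa1, serum amyloid A, had 7.71, 14.64, 8.91, 10.14 and 13.72 in the Wy-14643 livers, against 8.16, 10.87, 9.27 and 8.35 in the CMC Co1 livers. Its values in livers 2 and 5 were well above every control while liver 1 was below all of them, and the difference did not pass (1.86 ± 0.97, adjusted p = 0.219). Saa2 (2.31 ± 1.14, adjusted p = 0.191) and Orm2 (1.68 ± 0.94, adjusted p = 0.256) did not pass either. Saa1 and Saa2 are near-identical, and their signals may not be separate.

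Macrophage markers, of cells that lie between hepatocytes, depended on the cohort as well. Of 19 measured, 7 rose against CMC Co1 and 0 fell, and 3 rose without livers 2 and 5. Against CMC Co5, 8 rose, and against Co2 to Co5, 0 rose and 1 fell. C1qb, a complement subunit of macrophages, had 8.05, 9.21, 8.89, 8.35 and 9.52 in the Wy-14643 livers, against 7.59, 7.07, 6.84 and 6.93 in the CMC Co1 livers. All treated livers were above all controls (1.70 ± 0.36, adjusted p = 0.0005), but CMC Co1 was lower than Co2 to Co5 (-1.26, adjusted p = 0.0078), against which C1qb differed by 0.44 (adjusted p = 0.307). C1qa (1.61 ± 0.38, adjusted p = 0.00237), C1qc (1.53 ± 0.34, adjusted p = 0.00115), Cd5l (1.68 ± 0.41, adjusted p = 0.00296) and Vsig4, a Kupffer cell receptor (1.53 ± 0.48, adjusted p = 0.0275), rose against CMC Co1 and did not pass against Co2 to Co5. Vsig4 was lost without Wy-14643 liver 3 or 5 or CMC Co1 liver 2 or 4 (differences of 1.26 to 1.69). The mean log2 value over the 19 markers was 6.87 to 7.76 in the Wy-14643 livers, 6.42 to 6.83 in the CMC Co1 livers and 5.96 to 8.19 in Co2 to Co5.

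Of 6 measured MHC class II genes, H2-Ab1 (1.33 ± 0.39, adjusted p = 0.0173) and Cd74 (0.90 ± 0.28, adjusted p = 0.0271) rose and H2-Aa did not pass (0.97 ± 0.39, adjusted p = 0.0989). None of the 6 rose against Co2 to Co5 (limma), and against CMC Co5, 4 rose. H2-Ab1 differed from Co2 to Co5 by 0.65 (adjusted p = 0.144) and Cd74 by 0.55 (adjusted p = 0.0801). Of the 6, 0 rose without livers 2 and 5 together or without either of Wy-14643 liver 5 and CMC Co1 liver 4, 1 rose without Wy-14643 liver 3 or CMC Co1 liver 2 or 3, and 4 rose without Wy-14643 liver 1 or CMC Co1 liver 1. H2-Ab1 was lost without Wy-14643 liver 5 or CMC Co1 liver 3 or 4 (differences of 1.14 to 1.60). Cd74 was lost without Wy-14643 liver 3 or 5 or CMC Co1 liver 2 or 4 (differences of 0.75 to 1.09). Lyve1 (1.57 ± 0.52, adjusted p = 0.038) and Stab1 (0.63 ± 0.21, adjusted p = 0.0369), of sinusoidal endothelium, were the 2 of 12 endothelial markers that rose, and 7 rose against Co2 to Co5 and 4 against CMC Co5. Without livers 2 and 5, or without Wy-14643 liver 5 or CMC Co1 liver 2, 3 or 4, 0 rose, and without Wy-14643 liver 2 or 4, 1 rose. Lyve1 was lost without Wy-14643 liver 5 or CMC Co1 liver 2, 3 or 4 (differences of 1.07 to 1.81), and Stab1 without any one of Wy-14643 livers 2, 4 or 5 or CMC Co1 livers 2, 3 or 4 (differences of 0.50 to 0.78). None of 8 neutrophil markers passed in limma, and 2 had an unadjusted p under 0.05 (S100a8 2.03 ± 0.86, adjusted p = 0.12, and S100a9 1.88 ± 0.66, adjusted p = 0.0514), and 1 rose against CMC Co5. The part of these cells in the results above was not tested.

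Proliferation genes rose, most of all in 1 liver. Of 29 measured genes of S phase and mitosis, 12 rose and 0 fell (median 0.58), and 12 rose and 1 fell against Co2 to Co5. Against CMC Co5, 7 rose, but without Wy-14643 liver 5, 3 rose, and without livers 2 and 5, 2 rose. Over all 18193 genes, 1001 rose with every liver kept, 623 without liver 5 and 585 without livers 2 and 5. Mki67, the antigen of cycling cells, had 5.83, 5.88, 5.96, 7.21 and 8.30 in the Wy-14643 livers, against 5.36, 4.74, 4.56 and 5.00 in the CMC Co1 livers. Every treated liver was above every CMC Co1 liver, liver 5 by about 3 units (1.72 ± 0.37, adjusted p = 0.000711), and the call held in each leave-out (differences of 1.30 to 1.92). Cdk1, the mitotic kinase, had 7.22, 7.21, 7.62, 7.66 and 9.01 in the Wy-14643 livers, against 6.24, 6.54, 6.63 and 6.46 in the CMC Co1 livers, likewise apart (1.276 ± 0.27, adjusted p = 0.000697) and called in each leave-out. Ube2c (1.71 ± 0.41, adjusted p = 0.00301), Ccnb2 (1.30 ± 0.32, adjusted p = 0.00385), Top2a (1.23 ± 0.31, adjusted p = 0.0044) and Ccna2 (1.18 ± 0.30, adjusted p = 0.00525) rose in all 5 livers relative to all controls. Without liver 5 these 4 lost their calls, with differences of 1.22 for Ube2c, 0.89 for Ccnb2, 0.82 for Top2a and 0.80 for Ccna2. Untreated livers of Co2 to Co5 had Mki67 values from 4.72 to 8.10, and the highest was above Wy-14643 livers 1 to 4. The mean log2 value over the 29 genes was 5.91 to 7.08 in the Wy-14643 livers and 5.61 to 5.70 in the CMC Co1 livers. In Co2 to Co5 that mean was 5.51 to 7.04.

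Genes of G1 and growth control gave 5 rises and 3 falls among 23. Without liver 5, 0 rose, without liver 2, 2 rose, and without CMC Co1 liver 1, 3 or 4, 3 rose. Without livers 2 and 5, 1 rose and 1 fell, against Co2 to Co5, 2 rose and 1 fell, and against CMC Co5, 2 rose and 2 fell. Ccnd1, cyclin D1, had 8.73, 10.67, 8.52, 9.39 and 10.54 in the Wy-14643 livers, against 8.63, 8.02, 8.08 and 8.44 in the CMC Co1 livers. Livers 2 and 5 were highest and liver 3 was within the control range (1.278 ± 0.41, adjusted p = 0.0333). Its call was lost without Wy-14643 liver 2 or 5 or CMC Co1 liver 2 or 3 (differences of 1.00 to 1.54), and the difference was 0.14 against Co2 to Co5 (adjusted p = 0.841). Cdkn1a, which encodes p21, rose by 1.395 ± 0.38, adjusted p = 0.00966 and was lost without Wy-14643 liver 2 or 5 or CMC Co1 liver 4 (differences of 0.94 to 1.70). Its difference was 0.60 against Co2 to Co5 (adjusted p = 0.167) and -0.20 against CMC Co5 (adjusted p = 0.849). Btg2 rose by 1.33 ± 0.44, adjusted p = 0.0388 and was lost without Wy-14643 liver 2 or 5 or CMC Co1 liver 1, 3 or 4 (differences of 0.91 to 1.66). Gadd45a fell (-1.09 ± 0.35, adjusted p = 0.0322), lost without Wy-14643 liver 2 or 5 or any 1 of the 4 controls (differences of -1.23 to -0.91), and Gadd45g did not pass (1.90 ± 0.77, adjusted p = 0.096).

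Tumour-associated, oncofetal and imprinted liver genes showed 9 rises and 1 fall among 20 measured, and without Wy-14643 liver 5 or CMC Co1 liver 2 or 4, or against CMC Co5, 0 fell. Afp, alpha-fetoprotein, which adult liver normally silences, had 5.96, 8.07, 6.97, 6.03 and 8.38 in the Wy-14643 livers, against 4.11, 4.62, 4.77 and 4.20 in the CMC Co1 livers. All treated livers were above all controls and livers 2 and 5 were highest (2.66 ± 0.41, adjusted p = 1.41e-06). Ly6d had 8.84, 7.77, 8.80, 7.72 and 8.61 in the Wy-14643 livers, against 6.05, 6.28, 5.84 and 5.53 in the CMC Co1 livers, also apart (2.42 ± 0.37, adjusted p = 1.12e-06). Krt23, a keratin, had 9.25, 5.26, 8.80, 7.89 and 7.77 in the Wy-14643 livers, against 5.29, 5.69, 5.53 and 5.78 in the CMC Co1 livers. Liver 2 was just under the lowest control and the other 4 were more than 1.5 units above the highest (2.22 ± 0.28, adjusted p = 4.59e-09). Peg3, an imprinted gene, rose by 1.75 ± 0.35, adjusted p = 0.000193, and Ccn2, a target of YAP, by 1.49 ± 0.49, adjusted p = 0.0342. Ccn2 was lost without Wy-14643 liver 4 or 5 or any 1 of the 4 controls (differences of 1.18 to 1.77). Of these, Afp (1.87), Ly6d (2.42), Krt23 (2.596) and Peg3 (1.88) were also higher against Co2 to Co5.

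**Figure D4:**
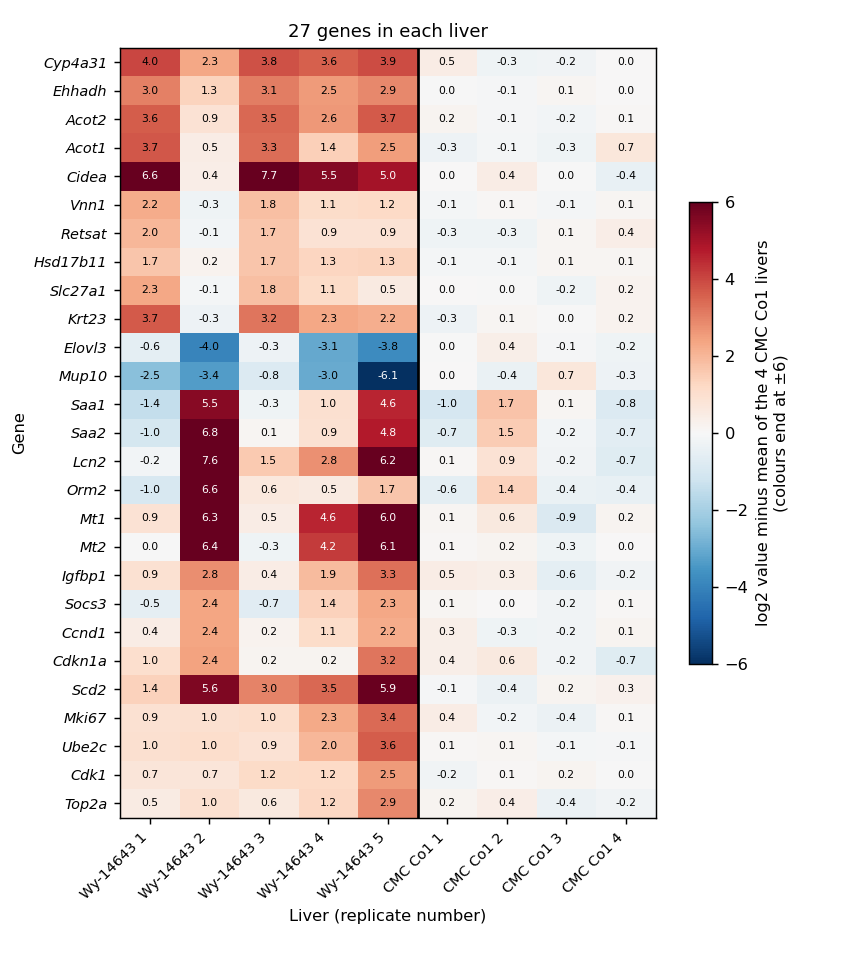
Log2 value of 27 genes in each of the 5 Wy-14643 livers (left of the black line) and the 4 CMC Co1 livers (right), each minus the gene's mean over the CMC Co1 livers; red is higher, blue lower, and the colours end at ±6. Lipid genes at the top are high in livers 1, 3, 4 and 5 and weak in liver 2, while acute phase, metallothionein and Scd2 values are highest in livers 2 and 5 and proliferation genes in liver 5.

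The series holds another PPAR ligand, pioglitazone, a PPARγ drug, given at the same 100 mg/kg by gavage for the same 28 days, with its own 4 CMC Co5 livers, and methapyrilene, given at 1000 ppm in food for 28 days, with 4 CMC Co3 livers (5 treated livers each). Their values went against what these labels would lead one to look for. In the livers labelled pioglitazone 3 genes were higher than in CMC Co5 (0.0165%) and 1 was lower (0.0055%), 0.022% in all, and the 3 included the CAR target Cyp2b10 (6.06, adjusted p = 8.41e-16). In the livers labelled methapyrilene 27 genes were higher than in CMC Co3 (0.148%) and 6 lower (0.033%), and the 27 included Fabp4, Cidea, Cidec, Cd36 and Vnn1. Both are called by their labels here, and a mix-up of labels was not tested.

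The response to Wy-14643 differed from that of the livers labelled pioglitazone in 544 genes (2.99%), 284 more positive (1.56%) and 260 more negative (1.43%), by the test of the difference of responses. Fabp4 lay between 6.69 and 7.80 in the livers labelled pioglitazone and between 7.07 and 8.23 in CMC Co5 (-0.33, adjusted p = 0.94), and the difference of responses was 5.48 (95% interval 3.96 to 6.99, adjusted p = 2.94e-07). Cyp4a31 lay between 7.36 and 8.08 in the livers labelled pioglitazone and between 7.63 and 9.33 in CMC Co5, and its difference of responses was 4.11 (adjusted p = 7.31e-09). Cyp2b9 (5.27, adjusted p = 0.00012), Cidea (5.08, adjusted p = 4.13e-06) and Rad51b (4.38, adjusted p = 2.98e-05) were the other largest positive differences. On the negative side stood Serpina12 (-6.79, adjusted p = 7.45e-06), Hsd3b5 (-6.50, adjusted p = 0.000391) and Slco1a1 (-4.33, adjusted p = 4.15e-05), which fell with Wy-14643. Cyp2b10 (-5.11, adjusted p = 1.85e-07), which rose in the livers labelled pioglitazone, was there too. For Cyp2c54 (-4.30, adjusted p = 2.18e-12), the responses were -3.28 to Wy-14643 and 1.01 in the livers labelled pioglitazone.

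Methapyrilene was given in food and not by gavage, so dose and route differ from those of Wy-14643. Against the livers labelled methapyrilene, 219 genes differed in response (1.2%), 110 more positive (0.605%) and 109 more negative (0.599%). Fabp4 lay between 7.44 and 12.54 in the livers labelled methapyrilene and between 6.56 and 7.49 in CMC Co3, a rise of 3.37 (adjusted p = 0.000112). Its difference of responses was 1.78 (95% interval 0.26 to 3.29, adjusted p = 0.29). Cidea rose by 3.11 in the livers labelled methapyrilene (adjusted p = 0.000559), and its difference of responses was 1.92 (95% interval 0.36 to 3.48, adjusted p = 0.258). Cidec and Vnn1 rose by 2.55 and 1.64 there, and their differences of responses were -1.14 (95% interval -2.38 to 0.09, adjusted p = 0.447) and -0.42 (95% interval -1.45 to 0.62, adjusted p = 0.806). For these 4 genes a difference between the responses was not shown, and the intervals are wide. PPARα markers differed in part. Of 10 Cyp4 genes, 12 thioesterases and 25 peroxisomal oxidation genes, 1, 1 and 2 differed in response, all more positive with Wy-14643. Cyp4a31 (3.66, adjusted p = 5.89e-07), Acot2 (2.49, adjusted p = 7.18e-06) and Ehhadh (2.21, adjusted p = 3.36e-05) responded more to Wy-14643. Cyp4a14 (0.66, 95% interval -1.76 to 3.09, adjusted p = 0.879), Acot1 (1.71, adjusted p = 0.235), Acot3 (1.12, adjusted p = 0.489), Acot4 (0.34, adjusted p = 0.774) and Acot9 (0.74, adjusted p = 0.375) did not pass. Passing were also Cyp2b9 (4.91, adjusted p = 0.000773), Pla2g7 (3.49, adjusted p = 1.16e-06), Scd2 (3.35, adjusted p = 0.00601) and Cox6b2 (3.16, adjusted p = 1.28e-09). Serpina12 (-7.37, adjusted p = 2.22e-06), Hsd3b5 (-5.55, adjusted p = 0.00734), Slco1a1 (-3.93, adjusted p = 0.000489), Cyp2c54 (-3.57, adjusted p = 4.05e-09) and Mup10 (-3.26, adjusted p = 0.046) responded more negatively.

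**Figure D5:**
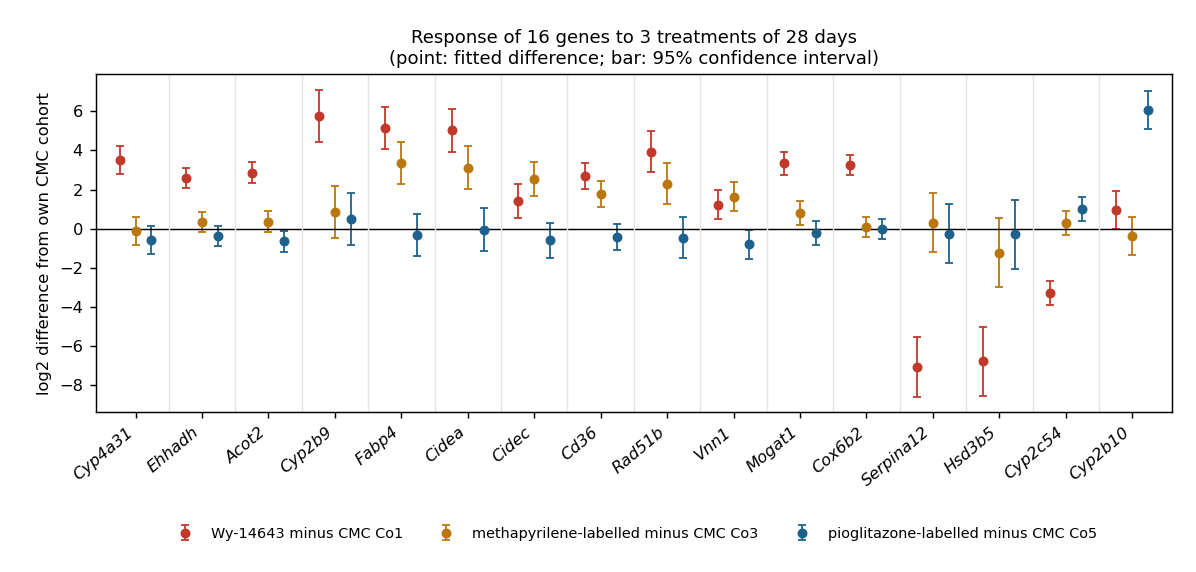
Log2 difference of 16 genes from the treatment's own CMC cohort, with 95% confidence intervals, for Wy-14643 (red, left of each trio), the livers labelled methapyrilene (ochre, middle) and the livers labelled pioglitazone (blue, right). Cyp4a31, Ehhadh, Acot2 and Cyp2b9 lie far above 0 with Wy-14643 and near 0 in the other livers, Fabp4, Cidea, Cidec, Cd36, Rad51b and Vnn1 are above 0 with Wy-14643 and in the livers labelled methapyrilene, and Cyp2b10 is highest in the livers labelled pioglitazone.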

How the data were processed

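RNA of each liver was hybridised to 1 Affymetrix mouse expression array. The authors' deposited table holds log2 values of 45037 probe sets on 91 arrays, normalized by RMA per the submitters' processing notes, with no version given there. The submitters' annotation gave 34945 probe sets 1 gene symbol, 932 several and 9160 none, and genes were named only from the first kind. The sources used here give no genome build for the files. For each of 18193 genes the brightest probe set of that kind, by its mean on the 91 arrays, was tested (9010 genes have others).

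Groups came from the labels. limma 3.58.1 in R 4.3.3 fitted 1 mean per group over all 91 arrays (19 groups, eBayes with trend, two-sided), with Benjamini-Hochberg adjustment over 18193 genes and a threshold of 0.05. Alternatives changed the samples, trend, filter, probe set, adjustment, centring, replicates, block or control cohort. On simulated data of the main comparison (18193 genes), 94% of genes changed by 1 and 46.3% of those changed by 0.5 on the log2 scale were recovered, with 3.61% false calls. The simulated noise was normal and independent, with the same spread of a gene in every group and no difference between control cohorts. Real livers and cohorts differed more, so these rates check the fit and are not error rates of the results. Replicate numbers of the groups did not pair the samples (correlations of deviations -0.23 to 0.034), so no block was used.

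The members and lists were chosen with earlier results of these data known. Named were the 10 largest rises and 10 largest falls with groups that do not overlap, a set of PPAR, proliferation and metabolic genes, up to 6 members per described list with the largest absolute change, and the 5 largest differences each way between responses, with clone names passed over. Acadm, Acadl, Acaa1b, Adipoq, Lep, Retn, Cyp39a1 and Alb were named outside that rule, after their values were seen. Some items were not analysed here.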

Additional observations from a re-analysis of the deposited data

Results flagged for a closer look

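Single livers stood apart from the rest of their group, by Dixon's gap test at its 95% critical value, in 17 of 316 groups of values tested (158 named genes in each group). That is 5.38%, and chance alone gives about 1 in 20. Many of the 158 named genes are of fatty acid metabolism or lipid droplets. Wy-14643 liver 2 was the lowest of its group in 6 of the 17, 4 of them genes of that kind. Its log2 values were 11.11 for Cyp4a31 (the other 4 treated livers were between 12.35 and 12.77), 12.35 for Ech1 (others 13.12 to 13.35), 11.17 for Eci1 (others 12.61 to 13.02), 12.97 for Hsd17b11 (others 14.07 to 14.43), 5.61 for Cox6b2 (others 8.45 to 8.84) and 6.55 for Pparg (others 7.63 to 7.91).

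Wy-14643 liver 5 was apart in Cdk1 at 9.01 (others 7.21 to 7.66), in Lyve1 at 9.44 (others 6.47 to 7.23) and, as the lowest, in Cyp1a2 at 11.11 (others 12.13 to 12.40). Wy-14643 liver 4 was highest in Peg3 at 10.41 (others 9.40 to 9.50) and lowest in Cyp51 at 10.27 (others 10.82 to 11.01). Wy-14643 liver 1 was lowest in Cyp7a1 at 9.18 (others 10.27 to 10.47), and Wy-14643 liver 3 in Gadd45g at 6.497 (others 9.68 to 10.91). In CMC Co1, liver 1 was lowest in Lpin1 at 8.63 (others 9.53 to 9.62) and liver 2 highest in Orm2 at 8.10 (others 6.12 to 6.32). CMC Co1 liver 3 was highest in Cyp1a2 at 13.26 (others 13.01 to 13.05), and liver 4 in Cyp3a11 at 14.72 (others 14.65 to 14.66).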

How the results depend on the processing

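The main comparison called 1914 genes. With p-values adjusted over all single-symbol probe sets, where genes have several, 3029 probe sets were called (1529 higher, 1500 lower). With only the 2 groups of the comparison in the fit, and so fewer samples to estimate the spread, 746 genes were called (434 higher, 312 lower). With the replicate number as a block 1157 were called (606 higher, 551 lower). The numbers do not pair the samples by label or by their deviations, and not every liver correlated best with its own number. Without Wy-14643 livers 2 and 5 together, a choice made after seeing the data, 1022 were called (585 higher, 437 lower), and against CMC Co5, 560 were lower. Leaving out 1 liver at a time gave 1180 to 2208 called genes, 623 to 1155 higher and 503 to 1053 lower, with the lowest counts without Wy-14643 liver 5 or CMC Co1 liver 2. The highest counts came without Wy-14643 liver 1. No trend, the filter on dim genes, the mean of probe sets and centred arrays left each of these counts within 1.5 times.

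The difference of responses from the livers labelled pioglitazone went to 864 probe sets over all probe sets (447 higher, 417 lower). It ranged over 377 to 762 genes with 1 liver left out (209 to 398 higher, 168 to 364 lower), lowest without CMC Co1 liver 2. For the livers labelled methapyrilene the counts were 357 over all probe sets (174 higher, 183 lower) and 100 with only the groups compared (45 higher, 55 lower). With 1 liver left out they were 141 to 290 (67 to 151 higher, 71 to 139 lower), lowest without Wy-14643 liver 5 or CMC Co1 liver 2.

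Of 158 named genes, 155 kept direction and side of the threshold with centred arrays, 157 with no trend, 149 with the mean of probe sets, 132 with the block, 125 with only the groups compared, 119 without livers 2 and 5, and 113 against CMC Co5 and also against Co2 to Co5. Signs turned against CMC Co5 for Fgf21 (-2.42), Plin2 (-0.35), Cyp8b1 (-0.15), G6pc (-0.33), Slc16a1 (-0.13), Pex3 (-0.10) and Cdkn1a (-0.20). Against Co2 to Co5 they turned for Fgf21 (-0.59), Angptl4 (0.19), Saa1 (-0.99), Fasn (-0.22), G6pc (-0.16), Lpin1 (-0.10), Msmo1 (-0.11), Lcn2 (-0.20), Saa2 (-0.79), Orm2 (-1.28) and Gstm3 (-0.0223). Without livers 2 and 5 they turned for Ppara (0.0067), Saa1 (-0.24) and Saa2 (-0.0061). The cause was not tested. Leaving out 1 liver turned Cyp8b1 (-0.076 and -0.0526, with a highest value of 0.33) and G6pc (-0.0448). Values near the low end of the array's scale, such as the CMC Co1 values of Cyp2b9, understate a fold change.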
